A study of Sus scrofa with 3 samples.

Results

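The expression of 9 genes that carry and tune steroid hormone signals was followed in visceral adipose tissue of male miniature pigs. They are the 4 receptor genes ESR1, PGR, NR3C1 and NR3C2, the 3 coactivator genes NCOA1, NCOA2 and NCOA3, and the 2 immunophilin genes FKBP4 and FKBP5. The members were chosen by name among the genes classed as mRNA, with earlier results of these data known. Each was found among the 22826 mRNA genes of each library. All 9 were above 0 in every library.

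Steroid hormone receptors are transcription factors that wait for their ligand in a complex with the HSP90 chaperone. FKBP4 and FKBP5 dock on that complex. For the glucocorticoid receptor, encoded by NR3C1, FKBP4 favours and FKBP5 restrains hormone binding and the move to the nucleus. The bound receptor sits on DNA and recruits the p160 coactivators NCOA1, NCOA2 and NCOA3, which bring in histone acetyltransferases. In fat, glucocorticoids act through NR3C1 and NR3C2, and FKBP5 is a classic glucocorticoid-induced gene.

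Retroperitoneal fat came from Chinese Wuzhishan miniature pigs that all received feed rich in fat and cholesterol (HFC diet). Intact males (IM) had sham incisions, castrated males (CM) had no hormone replacement, and castrated males with testosterone replacement (CMT) received weekly intramuscular testosterone propionate in corn oil. RNA was pooled in equal amounts into 1 library per group and sequenced on an Ion Proton instrument. The labels give between 4 and 6 pigs per pool, whereas the methods give the lower of these numbers for each group. With 1 pooled library per group there is no replicate, so no difference below has a replicate check, and the spread between pigs is unknown.

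Levels are given in UQRPKM, which are reads per kilobase of gene divided by the library's upper quartile instead of its total, times a fixed constant. Reads behind each value were recovered from its steps, and the mRNA genes of a library held between 13449107 and 14844063 of them. Each 95% interval is exact for independent reads and covers counting error only. Amplified reads are not independent molecules, so these intervals may be too narrow and p-values from reads too small. A gene listed at 0 is not shown to be silent, because 5 of 61 ribosomal protein genes were also listed at 0 in every library. The adipocyte markers ADIPOQ, PLIN1, LEP, LIPE and CIDEC were all present, summing to 121105 (IM), 114970 (CM) and 97663 (CMT) UQRPKM. FABP4, also on this list, was not found. ADIPOQ made up most of the sum. ADIPOQ and LIPE were highest in IM, whereas PLIN1, CIDEC and LEP were highest in CM, and each was lowest in CMT. LEP had 167.0 (IM), 502.3 (CM) and 156.0 (CMT) UQRPKM. The CM library stood apart by 6 liver markers, which summed to 6653 UQRPKM against 15.7 in IM and 21.0 in CMT. The CMT library stood apart by skeletal muscle markers, of which 6 of 7 were above 0 and CKM was at 0, with a sum of 5561 UQRPKM against 78.8 in IM and 62.6 in CM. Since each group is 1 library, results without these libraries could not be given. Fewer cells of a type and less RNA per cell cannot be told apart in such bulk tissue.

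Differences are written CM/IM, CMT/CM and CMT/IM, where CM/IM stands for CM versus IM and the library named first is the numerator. A gene counts as called when its level differed 1.5-fold or more and reached 1 UQRPKM in both libraries, which are the study's cut-offs without its test. In CM/IM, 0 of the 9 genes were called, against 18.8% of the 14123 mRNA genes tested. In CMT/CM, 0 were called as well, against 19.5% of 14098 genes. In CMT/IM, 1 was called, against 20.7% of 14151 genes, and that gene was NR3C2. An exact binomial test of the reads, which compares 2 libraries and not 2 conditions, gave an adjusted p under 0.05 at any fold for 1 member in CM/IM, 1 in CMT/CM and 3 in CMT/IM. The same test picked 34.7%, 30.3% and 38.3% of all mRNA genes tested. Members picked by it were FKBP4 in each comparison and NR3C2 and FKBP5 in CMT/IM. The median absolute log2 ratio of the 9 genes was 0.10 in CM/IM, 0.10 in CMT/CM and 0.15 in CMT/IM. Over all genes tested it was 0.25, 0.23 and 0.27. This spread depends on depth. For the 5 members with at least 1000 reads in both libraries together, the median was 0.08, 0.10 and 0.15, beside 0.18, 0.14 and 0.20 over all genes with as many reads. Of the latter, 3.99%, 4.91% and 6.40% reached 1.5-fold.

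**Figure D1:**
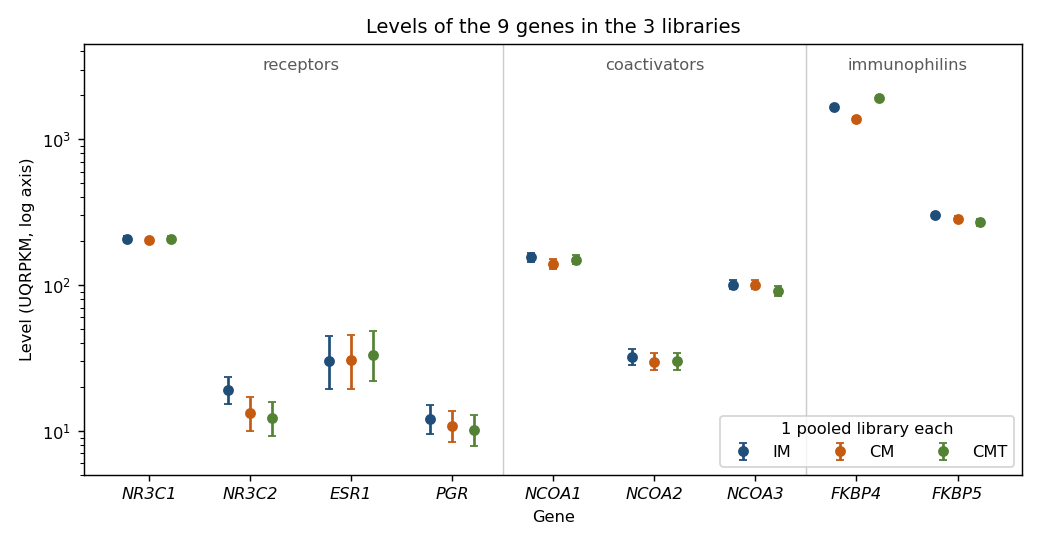
Level of each gene in UQRPKM on a log axis, by library, with exact 95% Poisson intervals from recovered reads. Most genes keep nearly the same level in the 3 libraries; NR3C2 is highest in IM and FKBP4 is lowest in CM and highest in CMT.

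NR3C1 encodes the glucocorticoid receptor and was the most abundant of the receptors. It measured 206.5 (IM), 202.4 (CM) and 206.6 (CMT) UQRPKM, resting on 2096, 1958 and 2054 reads. The 3 libraries were within counting error of each other. The log2 ratio was -0.03 in CM/IM, with a 95% interval from -0.12 to 0.06. It was 0.03 in CMT/CM, with an interval from -0.06 to 0.12. In CMT/IM the interval ran from -0.09 to 0.09, and scaling by total recovered reads moved that log2 ratio to 0.11. No end of these intervals lay further than about 0.12 from 0. They cover counting error only and set no bound on the effect of scaling or on the spread between pigs.

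NR3C2 encodes the mineralocorticoid receptor, which in fat also binds glucocorticoids. It measured 19.1 (IM), 13.2 (CM) and 12.2 (CMT) UQRPKM, resting on 88, 58 and 55 reads. The IM library was the highest, and both libraries from castrated pigs lay below it. The log2 ratio in CMT/IM was -0.65, with an interval from -1.16 to -0.15, and the adjusted p of the exact binomial test was 0.030. This ratio lies close to the threshold, and the gene was not called when the ratio was scaled by total reads (-0.54) or by the median gene (-0.57). In CM/IM the log2 ratio was -0.53, with an interval from -1.04 to -0.04 and an adjusted p of 0.087 in the exact binomial test, so it passed neither criterion. In CMT/CM the log2 ratio was -0.12, with an interval from -0.68 to 0.44. Genes with so few reads often passed the threshold. Among the 3349 genes with 50 to 250 reads in CMT and IM together, 30.5% did. The summed adipocyte markers were also lowest in CMT, and their part in the NR3C2 value was not tested.

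ESR1 encodes oestrogen receptor alpha. It measured 30.2 (IM), 30.4 (CM) and 33.3 (CMT) UQRPKM, resting on 25, 24 and 27 reads. These values overlap widely. The interval of the log2 ratio ran from -0.86 to 0.88 in CM/IM, from -0.72 to 0.99 in CMT/CM and from -0.70 to 0.99 in CMT/IM. A 1.5-fold difference was therefore not detectable for ESR1 at this depth. Its recovered length was only 556 bases, against 1549 to 6811 bases for the other members. If the true length and reads are larger by a common factor, the level stays as given and the intervals become narrower. If the gene model is instead partial, the level describes only that part of the gene. Which of these holds was not tested.

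PGR encodes the progesterone receptor and was the lowest of the 9 genes in every library. It measured 12.0 (IM), 10.8 (CM) and 10.17 (CMT) UQRPKM, resting on 81, 69 and 67 reads. All of its log2 ratios had intervals that included 0. The largest difference was that of CMT/IM, at -0.24 with an interval from -0.73 to 0.24.

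The p160 coactivators kept their order, with NCOA1 above NCOA3 and NCOA3 above NCOA2, in every library. NCOA1, also known as SRC1, measured 155.2 (IM), 139.6 (CM) and 149.2 (CMT) UQRPKM, resting on 806, 691 and 759 reads. The CM library was the lowest, with a log2 ratio of -0.15 against IM and an interval from -0.30 to -0.004. After adjustment over all mRNA genes the exact binomial test gave p = 0.11, so NCOA1 was not picked by it. In CMT/CM the log2 ratio was 0.10, with an interval from -0.06 to 0.25.

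NCOA2, also known as TIF2, measured 32.0 (IM), 29.8 (CM) and 30.0 (CMT) UQRPKM, resting on 247, 219 and 227 reads. Its log2 ratios lay between -0.10 and 0.01, and every interval included 0. NCOA3, also known as SRC3, measured 100.8 (IM), 100.9 (CM) and 90.8 (CMT) UQRPKM, resting on 735, 701 and 649 reads. IM and CM had nearly the same value, and CMT was lower. The log2 ratio was -0.15 in CMT/CM, with an interval from -0.31 to 0.005, and -0.15 in CMT/IM, with an interval from -0.30 to 0.004. The adjusted p of the exact binomial test was 0.15 and 0.14, respectively. The summed level of the 3 coactivators was 288.0 (IM), 270.3 (CM) and 270.0 (CMT) UQRPKM.

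FKBP4, the immunophilin also known as FKBP52, was by far the most abundant of the 9 genes. It measured 1659 (IM), 1376 (CM) and 1926 (CMT) UQRPKM, resting on 3829, 3027 and 4355 reads. Its order ran from CM over IM to CMT, and no pair of Poisson intervals overlapped. The log2 ratio was -0.27 in CM/IM, with an interval from -0.34 to -0.20 and an adjusted p of 2.73e-13 in the exact binomial test. In CMT/CM it was 0.48, with an interval from 0.42 to 0.55 and an adjusted p of 1.16e-44 in the exact binomial test. In CMT/IM it was 0.22, with an interval from 0.15 to 0.28 and an adjusted p of 2.13e-10 in the exact binomial test. The greatest of these differences, 1.40-fold, stayed under the threshold of 1.5. Among the 4293 genes with at least 1000 reads in CMT and CM together, 4.91% reached 1.5-fold, and their median absolute log2 ratio was 0.14. FKBP4 was highest in the library with the muscle markers and lowest in the one with the liver markers, and the part of these tissues in its values was not tested.

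FKBP5, the immunophilin also known as FKBP51, measured 300.5 (IM), 283.4 (CM) and 268.8 (CMT) UQRPKM, resting on 1869, 1680 and 1638 reads. Its levels were highest in IM and lowest in CMT, in small steps. The log2 ratio was -0.08 in CM/IM, with an interval from -0.18 to 0.01, and -0.08 in CMT/CM, with an interval from -0.18 to 0.02. In CMT/IM it was -0.16, with an interval from -0.26 to -0.06 and an adjusted p of 0.0043 in the exact binomial test. Scaled by total recovered reads, that log2 ratio was -0.05, outside its own counting interval. The fold was 1.12 in favour of IM and under the threshold.

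**Figure D2:**
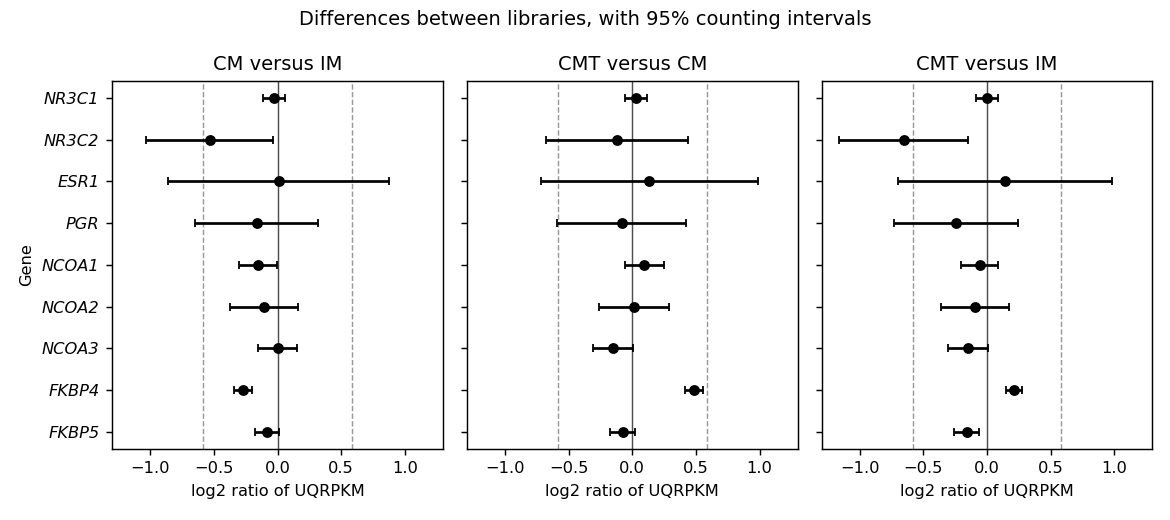
Log2 ratio of UQRPKM of each gene in the 3 comparisons, with exact 95% intervals that cover counting error only; dashed lines mark 1.5-fold. NR3C2 in CMT/IM is the only point that lies beyond a dashed line (-0.65), FKBP4 has narrow intervals away from 0, and ESR1, PGR and NR3C2 have wide ones.

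UQRPKM is a value per length, so levels of different genes can be set side by side within a library. The place of ESR1 is less certain, given its short recovered length. In IM the order from high to low was FKBP4, FKBP5, NR3C1, NCOA1, NCOA3, NCOA2, ESR1, NR3C2 and PGR. In CM and CMT only ESR1 and NCOA2 changed places. These neighbours did not differ beyond counting error in any library, with an interval of their log2 ratio from -0.51 to 0.74 in IM. NR3C2 and PGR differed in IM, by 0.67 on the log2 scale with an interval from 0.21 to 1.12. They did not differ beyond counting error in CM, where the interval ran from -0.23 to 0.82, or in CMT, where it ran from -0.28 to 0.80. ESR1 and NR3C2, neighbours in IM, did not differ beyond counting error there (-0.04 to 1.31). The other neighbours differed beyond counting error in all 3 libraries. By level, FKBP4 stood above 97.2% to 98.1% of the mRNA genes, NR3C1 above 84.1% to 84.8% and PGR above 48.7% in CMT, 49.1% in CM and 50.004% in IM. These shares count the genes listed at 0. Of the 22826 mRNA genes, 15806 (IM), 15811 (CM) and 15785 (CMT) were above 0.

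A ratio of 2 genes within a library does not depend on the scaling between libraries. Ratios of this kind were formed between members of like role, chosen after the values were seen, and their 12 changes between libraries were not adjusted for their number. The FKBP4 level was 5.52 times that of FKBP5 in IM (95% interval 5.22 to 5.84), 4.86 times in CM (4.57 to 5.16) and 7.16 times in CMT (6.77 to 7.59). The 3 intervals did not overlap. From CM to CMT the ratio was higher by 0.56 on the log2 scale, with an exact interval from 0.44 to 0.68. From IM to CM it was lower, with a log2 change of -0.19 and an interval from -0.30 to -0.07.

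The NR3C1 level was 10.8 times that of NR3C2 in IM (8.73 to 13.5), 15.3 times in CM (11.8 to 20.2) and 16.9 times in CMT (13.0 to 22.6). The ratio was lowest in IM. Its log2 change was 0.65 in CMT/IM, with an interval from 0.14 to 1.17, and 0.50 in CM/IM, with an interval from -0.0004 to 1.02. NCOA1 stood at 4.85, 4.69 and 4.97 times the level of NCOA2 in IM, CM and CMT, and the interval of each change included 0. Against NCOA3 it stood at 1.54, 1.38 and 1.64 times. That ratio was higher in CMT than in CM by 0.25 on the log2 scale, with an interval from 0.03 to 0.46.

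**Figure D3:**
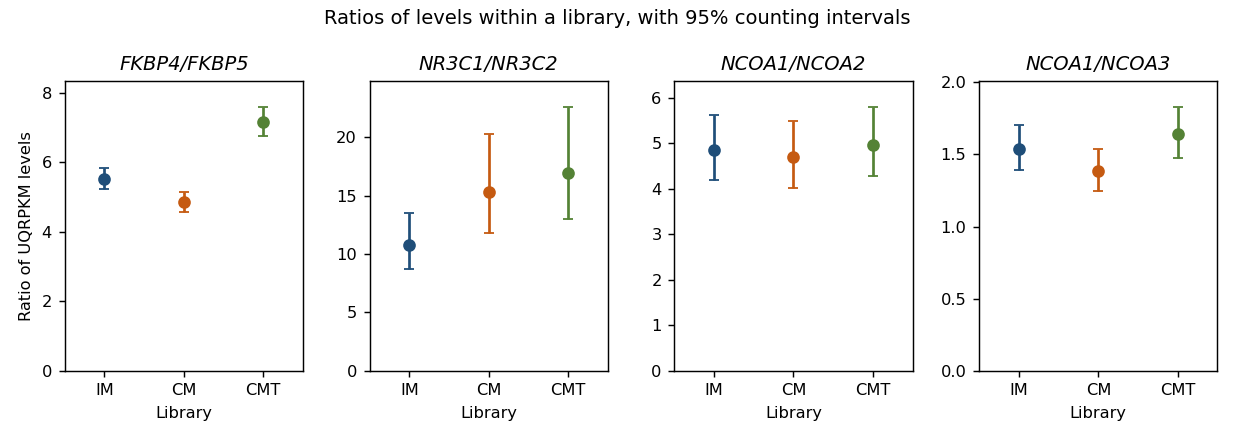
Ratio of the UQRPKM levels of 2 genes within each library, with exact 95% counting intervals, on axes that start at 0. FKBP4 over FKBP5 is lowest in CM (4.86) and highest in CMT (7.16), NR3C1 over NR3C2 is lowest in IM (10.8), and NCOA1 over NCOA2 stays between 4.69 and 4.97.

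**Figure D4:**
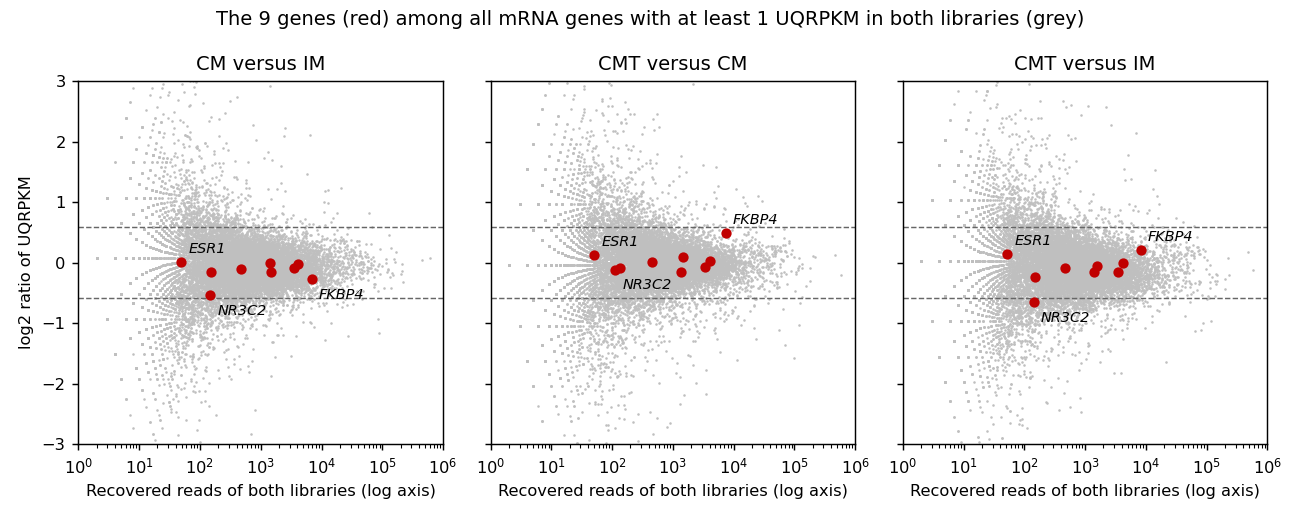
Log2 ratio of UQRPKM against the recovered reads of both libraries (log axis) for every mRNA gene that reached 1 UQRPKM in both (grey) and the 9 genes (red); dashed lines mark 1.5-fold. The axis ends at 3 and leaves out 61, 83 and 57 genes. The 9 genes lie near the centre of the cloud except NR3C2, which has few reads, and FKBP4 in CMT/CM, which has many.

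Genes around the receptors were counted from lists chosen by name, with earlier results of these data known. For these counts, the share of all mRNA genes past 1.5-fold in CM/IM was 8.38% higher and 10.4% lower in CM. It was 9.53% and 9.97% in CMT/CM and 8.81% and 11.9% in CMT/IM. In CMT/IM, 42.4% of the calls over all genes were higher, against 56.8% with scaling by total recovered reads and 53% with scaling by the median gene. By the exact test on reads the shares were 12.6% higher and 22.1% lower in CM/IM, 13.5% and 16.8% in CMT/CM, and 12.4% and 25.9% in CMT/IM.

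Of the receptors outside the set, 9 of 10 symbols were found, and ESR2 (oestrogen receptor beta) and ESRRB were listed at 0 in all libraries. GPER1, a membrane oestrogen receptor, was called lower in CMT, at 24.6 (IM), 26.9 (CM) and 10.4 (CMT) UQRPKM from 94, 98 and 39 reads. Its log2 ratio was -1.37 in CMT/CM (-1.94 to -0.82) and -1.24 in CMT/IM (-1.82 to -0.69). ESRRG, an orphan receptor related to the oestrogen receptors, was called higher in CM/IM and lower in CMT/CM, with 5.97, 11.4 and 5.69 UQRPKM in IM, CM and CMT, from 46, 84 and 43 reads. The membrane-associated progesterone receptor components were abundant. PGRMC1 had 1215, 1311 and 1402 UQRPKM and PGRMC2 had 620.3, 770.2 and 588.6, in IM, CM and CMT, and neither was called.

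Of the other coactivators and corepressors, 18 of 22 symbols were found, 17 could be tested and only CREBBP was called. CREBBP, a histone acetyltransferase that the p160 coactivators recruit, measured 19.96 (IM), 5.81 (CM) and 19.2 (CMT) UQRPKM, resting on 155, 43 and 146 reads. It was low in CM alone, with a log2 ratio of -1.78 in CM/IM (-2.30 to -1.28) and 1.72 in CMT/CM (1.22 to 2.25). Its paralogue EP300 had 246.4, 210.1 and 206.8 UQRPKM and was not called. The median log2 ratio of the 17 genes was -0.05, 0.005 and -0.04 in CM/IM, CMT/CM and CMT/IM, beside -0.06, -0.02 and -0.08 over all genes tested.

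Of the chaperones of the receptor complex, 16 of 17 symbols were found and tested. Called genes numbered 0 in CM/IM, 0 in CMT/CM and 1 in CMT/IM. That gene, not called under any of the 3 other scalings tried, was AHSA1, an activator of HSP90, at 138.4 (IM), 99.2 (CM) and 90.1 (CMT) UQRPKM. By the exact test on reads, 1 chaperone was higher and 6 were lower in CM than in IM, 7 were higher and 3 lower in CMT than in CM, and 5 were higher and 7 lower in CMT than in IM. HSP90AA1, the chaperone itself, had 9437, 8364 and 9965 UQRPKM in IM, CM and CMT. STIP1, which passes receptors from HSP70 to HSP90, had 770.1, 604.6 and 712.9. CDC37, a cochaperone of HSP90, had 1654, 1345 and 1541. These 3 genes, named after their values were seen, had log2 ratios of -0.17, -0.35 and -0.30 in CM/IM. Of the 16 chaperones, 7 were lowest in CM, as was FKBP4, 4 were lowest in IM (HSPA4, PTGES3, PPID and ST13) and 5 in CMT (HSPA8, DNAJB1, AHSA1, SGTA and TTC4). The share of all mRNA genes that were lowest in CM was not counted, so these counts have no share beside them. The median log2 ratio of the list was -0.07 in CM/IM, 0.15 in CMT/CM and -0.10 in CMT/IM. Over all genes tested it was -0.06, -0.02 and -0.08.

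Of the genes known to respond to glucocorticoids, 14 of 16 symbols were found, KLF15 was listed at 0 in all libraries, and 12 could be tested. In CM/IM, 10 of the 12 were lower. Over all genes tested the share lower at any fold was not counted, though a median of -0.06 puts most of them below 0. Of the 10 genes, 3 were called. CRISPLD2, a secreted glycoprotein, had a log2 ratio of -1.06 (-1.23 to -0.88), LPIN1, a phosphatidate phosphatase of triglyceride synthesis, -0.71 (-0.77 to -0.65), and ANGPTL4, an inhibitor of lipoprotein lipase, -0.66 (-0.70 to -0.62). By the exact test on reads, 9 were lower and 1, the metallothionein MT1A, was higher. MT1A had a log2 ratio of 0.58 in CM/IM and was called higher under each of the 3 other scalings tried (0.60 to 0.64). Reads of MT1A may be shared with near-identical metallothionein genes. The median log2 ratio of the list was -0.47 in CM/IM, beside -0.06 over all genes tested. FKBP5, which belongs to the same class but is counted among the members, had -0.08. ZBTB16 and PER1, transcriptional regulators, had -0.58 and -0.48 in CM/IM and were not called. Other genes of the list lay near 0 in CM/IM, with TSC22D3 at -0.11, KLF9 at -0.09 and CEBPD at 0.06. In CMT/CM, CEBPD (0.62) and KLF9 (0.69), both transcription factors, were called higher, and so was PDK4, an inhibitor of glucose oxidation, with scaling by total recovered reads alone (0.61). DUSP1, a MAP kinase phosphatase, was called lower (-0.68), as was MT1A (-0.99). In CMT/IM, KLF9 (0.60) and CEBPD (0.68) were called higher. DUSP1 (-1.11) and SGK1, a kinase of sodium transport (-0.69), were called lower there, and SGK1 was not called when scaled by total recovered reads (-0.58). The median of the list was 0.26 in CMT/CM and -0.36 in CMT/IM.

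Of the genes known to respond to androgens in other tissues, 12 of 13 symbols were found, 3 were listed at 0 (TMPRSS2, KLK1 and ABCC4) and 8 could be tested. None was called in CM/IM, where the exact test on reads picked 2 as higher and 2 as lower. In CMT/CM, HPGD, which inactivates prostaglandins, was called higher. It measured 71.6 (IM), 48.4 (CM) and 103.9 (CMT) UQRPKM, resting on 45, 29 and 64 reads. PMEPA1, an inhibitor of TGF-beta signalling, was called lower, at 189.3 (IM), 217.5 (CM) and 135.5 (CMT) UQRPKM. In CMT/IM, STEAP4, a metalloreductase of fat, was called higher, at 41.1 (IM), 58.1 (CM) and 74.9 (CMT) UQRPKM. Its log2 ratio was 0.50 in CM/IM and 0.37 in CMT/CM, and it was not called in either. HPGD and ACSL3, which activates fatty acids, were also called higher in CMT/IM with scaling by total recovered reads (0.65 and 0.64) or by the median gene (0.62 and 0.61). The median log2 ratio was -0.11, 0.30 and 0.12 in the 3 comparisons.

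Of the genes known to respond to oestrogen or progesterone, 8 of 10 symbols were found, TFF1 was listed at 0, and 6 could be tested in CM/IM and 5 in the other comparisons. CXCL12, a chemokine, was called lower in CM/IM, at 1365 (IM), 860.0 (CM) and 964.0 (CMT) UQRPKM. GREB1 was also called lower and CA12 higher in CM/IM, but their intervals included 0, since GREB1 had 18 reads in IM and 9 in CM and CA12 had 4 and 6. IGFBP4, a binding protein of insulin-like growth factors, was called lower in CMT/IM, with 937.9 and 611.2 UQRPKM, but not under any of the 3 other scalings tried. The median log2 ratio was -0.17 in CM/IM, 0.15 in CMT/CM and -0.50 in CMT/IM.

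**Figure D5:**
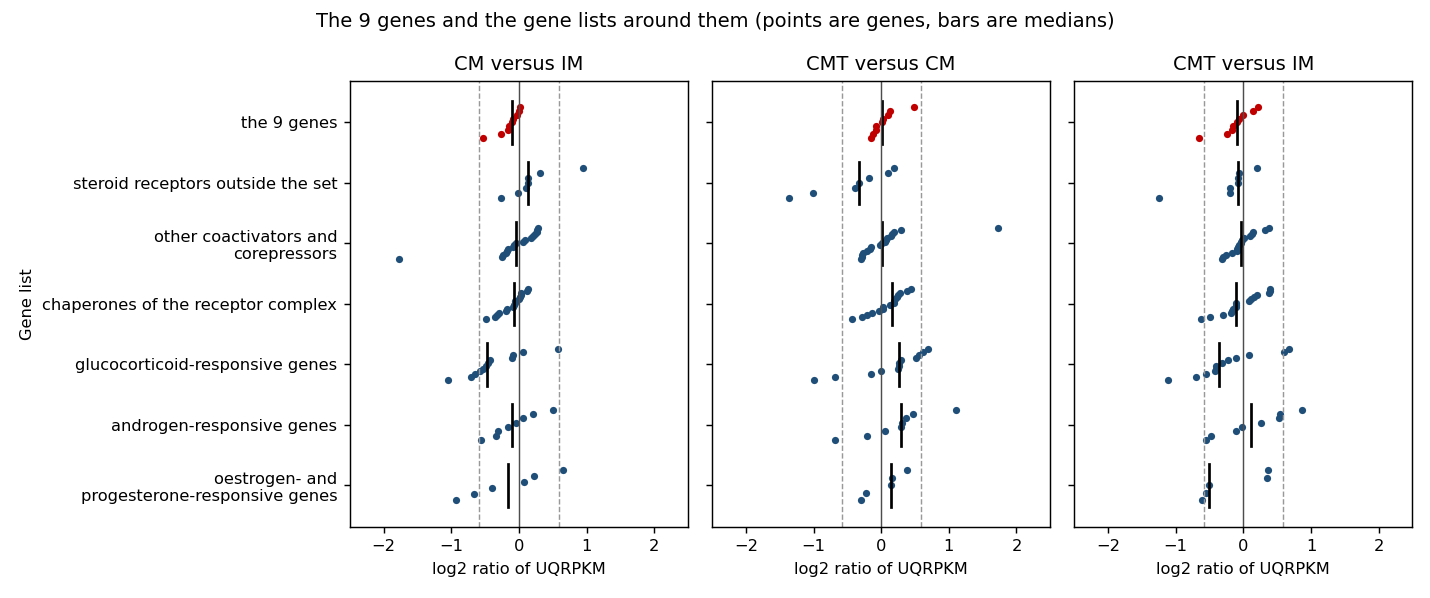
Log2 ratio of UQRPKM of the 9 genes (red) and of each gene list (blue), 1 point per gene tested, black bars at the medians and dashed lines at 1.5-fold. The 9 genes lie close to 0, CREBBP is the far point of the coactivators (-1.78 and 1.72), and the glucocorticoid-responsive genes have the lowest median in CM/IM (-0.47).

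Markers of other tissues that make or clear steroids were looked up beside these values. Of the adrenal cortex markers, CYP11A1 and CYP17A1 were at 0 in every library and CYP21A2 was at 0 in IM and CM. STAR, which the adrenal shares with other cells, had 25.3, 22.7 and 27.6 UQRPKM in IM, CM and CMT. The kidney markers NPHS1 and SLC12A1 were at 0 in every library. Macrophage markers summed to between 733.1 and 881.5 UQRPKM, with CD163 at 0, and T cell markers to between 270.0 and 313.5. The macrophage markers did not move together. EMR1 had 45.6, 93.6 and 30.6 UQRPKM and LOC100520753 (CD68) had 17.2, 42.9 and 22.2, in IM, CM and CMT. CD14, CSF1R and MRC1 made up most of the sum and were highest in CM, IM and CMT, respectively. Endothelial markers summed to between 5844 and 6630 UQRPKM. The sum of the stromal progenitor markers was highest in CMT, at 18393 UQRPKM against 14662 in IM and 14461 in CM. DCN made up most of this sum. DCN, LUM and PDGFRA were each highest in CMT, whereas CD34 was highest in IM, at 1076 (IM), 784.0 (CM) and 796.1 (CMT) UQRPKM. Mesothelial markers were lowest in IM and highest in CMT, at 40.9, 75.9 and 173.1 UQRPKM over IM, CM and CMT, with LRRN4 at 0. The part of these cell types in the values of the 9 genes was not tested.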

How the data were processed

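RNA-Seq values of the 3 pooled libraries were used as deposited. The authors trimmed adaptors, discarded poor reads and used MapSplice to align the remainder to Sscrofa 10.2. The unit of the deposited values is UQRPKM, an RPKM in which the upper quartile of a library takes the place of its total. The counting tool, the annotation and the handling of reads mapping to several genes are not given in the sources used here. Groups came from the sample titles. No coordinates or sequences are given, since the gene table at hand is of another build (all 9 symbols were found in it).

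Reads were recovered as whole multiples of the value of 1 read, taking the shortest gene length up to 120000 bases. The upper quartiles used were 149, 142 and 146 for IM, CM and CMT. All 20838 genes above 0 gave whole reads, within a relative error of at most 7.65e-09. Reads that share a common factor are underestimated. The 75th percentile of recovered reads over all genes was 138, 132 and 136, below these quartiles. Totals over all gene types were 16611931, 15561124 and 15106608 reads.

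Log2 ratios of UQRPKM carry no pseudocount. Intervals were Clopper-Pearson for ratios, Poisson for levels and conditional odds ratios for changes of a ratio of 2 genes. The two-sided exact binomial test took its expected share from the upper quartiles, with Benjamini-Hochberg adjustment over every mRNA gene that had reads, at 0.05. Recovery and test were also run on simulated Poisson reads built from the recovered lengths and the same upper quartiles. Such a simulation cannot show that these lengths and quartiles are right, and it holds no spread between pigs. Python 3.11.15, numpy 2.4.6, pandas 2.3.3 and scipy 1.17.1 were used. The members and lists were chosen with earlier results of these data known. From each list, up to 3 called genes with the highest and 3 with the lowest ratio in a comparison are named, with further genes named for their role. For members past 1.5-fold, the 3 genes nearest over the log2 ratios of CM/IM and CMT/CM are named, among mRNA genes with a mean level within 2-fold and at least 50 reads. Other pseudocounts, minimum values, scalings, folds and read numbers were tried as alternatives. Some genes of the lists are not reported here.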

Additional observations from a re-analysis of the deposited data

How the results depend on the processing

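No paired analysis was possible because each group is 1 pooled library. For the same reason no replicate could be left out. The count of members called was 0 in CM/IM and 0 in CMT/CM under all settings tried. In CMT/IM it was 1 (NR3C2) with a pseudocount of 1, without a minimum value, with a minimum of 10 UQRPKM, scaled by total UQRPKM, and with the exact binomial test added on recovered or, as a choice made after seeing the data, doubled reads. It was 0 with scaling by total recovered reads, 0 with scaling by the median ratio and 0 at a 2-fold threshold. Scaling by total recovered reads moved all log2 ratios of CMT/IM by 0.11, the largest shift. Of 108 member ratios under the alternatives, 104 stayed within their counting intervals, and 5 changed sign. The 5 were NR3C1 in CM/IM (0.03 under both scalings by reads and by the median), NCOA1 in CMT/IM (0.06 and 0.02) and NCOA2 in CMT/IM (0.02 by reads), none of them called. The ratios outside their intervals were all of CMT/IM, namely NR3C1 (0.11), FKBP5 (-0.05) and FKBP4 (0.33) scaled by reads, and FKBP4 (0.30) scaled by the median.

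Over all mRNA genes, 2657 were called in CM/IM, 2749 in CMT/CM and 2936 in CMT/IM. A minimum of 10 UQRPKM left 1181, 1235 and 1423, a 2-fold threshold 1139, 1225 and 1162, and the added exact binomial test on reads 1432, 1498 and 1691. The alternative that takes reads from RefSeq coding lengths was not run because no protein sequences were at hand. Depth limits ESR1 most, with 24 to 27 reads per library.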

Other observations

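The other genes of the FKBP family were picked after their values were seen. Of 12 such genes, FKBP6 was listed at 0 and 11 could be tested, with 0 called in CM/IM, 1 in CMT/CM and 1 in CMT/IM, against 18.8%, 19.5% and 20.7% of all mRNA genes tested. FKBP11 and FKBP1B were called higher in CM/IM with scaling by total recovered reads (0.64 and 0.62) or by the median gene (0.64 and 0.62). FKBP11 (0.60) in CM/IM and FKBP3 (0.60) in CMT/IM were also called higher with scaling by total UQRPKM, and FKBP3 with the other scalings too (0.67 and 0.63). FKBP1B, which binds ryanodine receptor calcium channels, measured 73.5 (IM), 108.1 (CM) and 53.3 (CMT) UQRPKM, resting on 107, 150 and 76 reads, with a log2 ratio of -1.02 (-1.44 to -0.61) in CMT/CM. FKBP7, a family member of the endoplasmic reticulum, had 93.2, 131.1 and 141.2 UQRPKM, with a log2 ratio of 0.60 (0.27 to 0.93) in CMT/IM. FKBP8, an abundant member at mitochondria, had 3238, 3228 and 2711 UQRPKM. FKBP10, a collagen chaperone, was lowest in CM, with 313.2, 243.2 and 306.7 UQRPKM.

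Among 2531 mRNA genes of like level, those closest to NR3C2 over the log2 ratios of the 3 libraries were HPDL, SYT2 and LOC102167710. HPDL had 12.8, 8.71 and 8.09 UQRPKM from 34, 22 and 21 reads, and SYT2 had 20.3, 13.8 and 12.8 from 68, 44 and 42 reads. LOC102167710 had 18.2, 12.9 and 11.7 UQRPKM from 67, 45 and 42 reads. All 3 patterns rest on few reads.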
